A study of Mus musculus with 9 samples.

Results

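The genes described here are those of the sodium, potassium and calcium channels, taken as the rows of the count table whose gene symbol begins with Kcn or Cacn, or with Scn and a digit, without the noncoding RNA Kcnq1ot1. The rule takes 138 of the 36410 genes listed. They stand for 137 distinct genes, since Scn2a is also listed under its older symbol Scn2a1. The measurements are RNA-seq counts from 9 libraries of immortalized striatal cells that were derived from mouse embryos, 3 libraries of each of 3 lines labelled as strain C57/BL6. All 3 lines carry knock-in Htt exon 1 alleles that differ in the length of the polyglutamine stretch, which is 7 on both alleles in control cells (STHdhQ7/Q7), 7 on 1 allele and 111 on the other in HD-het cells (STHdhQ7/Q111), and 111 on both alleles in HD-homo cells (STHdhQ111/Q111). There is 1 line per genotype, so that a difference of genotype and one of line cannot be told apart. Nothing in the labels says that the 3 libraries of a line came from separate cultures, so the p-values measure only the spread between libraries. Values after ± are SDs over the 3 libraries for levels and SEs of the fit for log2 fold changes. The question put to the data was which channel subunits each line expresses and how their levels differ among the lines.

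Voltage-gated sodium, calcium and potassium channels are membrane pores that open when the voltage across the membrane changes, and together they shape the action potential and calcium entry of neurons and muscle. A pore-forming subunit carries the current, and auxiliary subunits (beta, alpha2delta, gamma, KChIP) set its surface level and gating. Silent subunits carry no current alone and act by joining another pore. In striatal neurons, inward rectifiers and A-type potassium channels are known for holding the cell at rest and delaying firing. The symbol rule also takes in genes whose channels are not opened by voltage, namely the inward rectifiers (Kcnj), the leak channels with a pair of pore domains (Kcnk), and small-conductance and sodium-activated potassium channels (Kcnn, Kcnt), as well as 3 antisense or noncoding RNAs.

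Library totals ran from 29507665 to 41197931 counts, of which the channel genes took between 0.0299% and 0.0452%. Levels are given as CPM (counts scaled to a common library total) after normalization of the libraries by edgeR's TMM method. A gene was called expressed in a line when all 3 libraries reached 1 CPM, and at the floor when no library of the line had more than 3 counts, which is 0.0710 to 0.101 CPM in these libraries and covers counting error only. Genes between these limits were called detected. Each pair of libraries within a line differed by more than counting noise, with a chi-square per gene of 2.13 to 37.7. The label striatal was set beside marker genes. Of 10 neuronal markers, Rbfox3, Syt1, Snap25, Nefl and Dcx were at the floor in all 3 lines, and of 10 markers of striatal medium spiny neurons, Drd1 and Drd2 were at the floor in all 3 lines. Of the 4 neural progenitor markers, Vim, a filament gene of many cell types, had means of 5383 CPM in control, 4568 CPM in HD-het and 4264 CPM in HD-homo cells, while the other 3 were far lower in HD-homo cells. Nes had means of 526, 839.5 and 28.4 CPM, Sox2 of 128, 82.9 and 5.48 CPM, and Pax6 of 32.1, 48.2 and 0.132 CPM, in the same order of lines. The 6 smooth muscle markers had summed levels of 2315 to 2708 CPM in control cells, 6870 to 7532 CPM in HD-het cells and 99.4 to 184 CPM in HD-homo cells, mostly from Acta2 and Tagln, whereas Myh11 stayed between 28.5 and 32.5 CPM (means of the lines). Of the 5 fibroblast markers, Col1a1 had means of 2465, 7097 and 4234 CPM in the same order of lines, but Col1a2 had 73.4, 3.15 and 1494 CPM, Pdgfra 5.21, 4.38 and 307 CPM, and Dcn 4.06, 1.65 and 21.5 CPM, so that those 3 were lowest in HD-het and highest in HD-homo cells. These marker levels move with the lines, as do the channel genes below, and their part in the channel results was not tested. Htt itself stood at 99.97 ± 6.00 CPM in control cells, 62.3 ± 1.51 CPM in HD-het cells and 20.2 ± 1.29 CPM in HD-homo cells (SD, n = 3). In bulk RNA, fewer cells that express a gene and less RNA of it per cell cannot be told apart.

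Control cells expressed 27 of the 138 channel genes, HD-het cells 33 and HD-homo cells 28, while 31.4%, 32.2% and 31.6% of all listed genes reached that level. The HD-het count takes in Scn2a under both of its rows, and the HD-homo count only under the row Scn2a. At the floor were 75 genes in control cells, while HD-het cells had 63 such genes and HD-homo cells 71. Over the lines, 43 channel genes were expressed in at least 1 line, 46 were detected but expressed in none, and 49 were at the floor in all 3 lines, 19 of which had 0 counts in all 9 libraries. Together, 95 of the 138 did not meet the expression limit in any line. HD-het cells had the longest list of voltage-gated potassium channel pore and silent subunits, with 9 of 40 expressed against 5 in control cells and 4 in HD-homo cells.

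**Figure D1:**
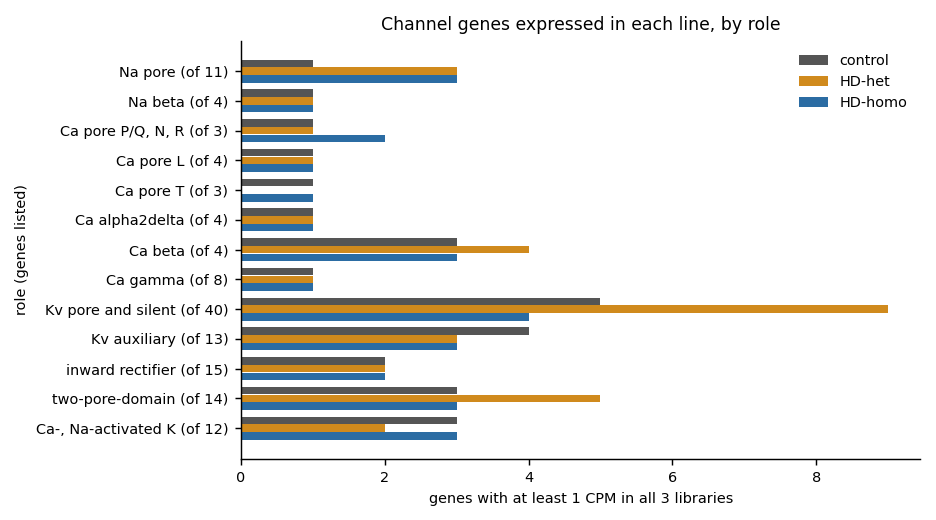
Number of channel genes with at least 1 CPM in all 3 libraries (x axis) in each of the 3 lines (bars), by the role of the gene (y axis, with the number of genes listed for each role). The largest difference is among voltage-gated potassium channel pore and silent subunits, of which HD-het cells expressed 9, control cells 5 and HD-homo cells 4.

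Of the 16 channel genes expressed in all 3 lines, 7 encode calcium channel subunits. They include the pore-forming Cacna1a and Cacna1c, the auxiliary Cacna2d1, Cacnb1, Cacnb2, Cacnb3 and Cacng7, the potassium channel genes Kcnh6, Kcnq5 and Kcns3 with the auxiliary Kcnab2, the inward rectifier Kcnj14, the leak channels Kcnk2 and Kcnk10, and the calcium-activated Kcnn4. No pore-forming sodium channel subunit was expressed in all 3 lines. In control cells alone, 2 genes were expressed, Kcng1 and Kcnmb4. In HD-het cells alone, 7 were expressed, Cacnb4, Kcnd3, Kcnh1, Kcnh2, Kcnh5, Kcnk12 and the listing Scn2a1, and in HD-homo cells alone 5 were, Cacna1b, Kcnip3, Kcnj2, Scn1a and Scn3a. Both HD lines but not control cells expressed Kcnd1, Kcnk5, Kcnt2 and Scn2a. Control and HD-het cells, but not HD-homo cells, expressed Kcnab1, Kcnf1, Kcnip1, Kcnj4 and Kcnk3, among others, and control and HD-homo cells shared Cacna1g, Kcnab3 and Kcnn1.

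**Figure D2:**
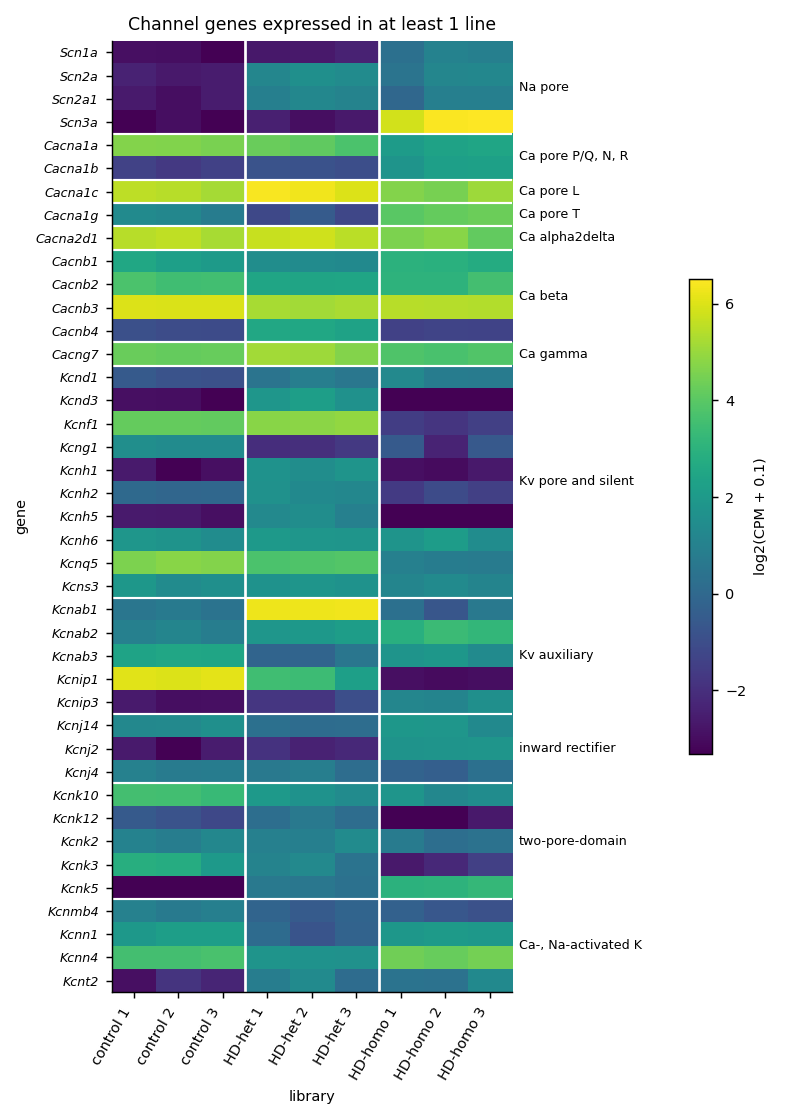
Level of 41 of the channel genes expressed in at least 1 line (rows, grouped by role) in the 9 libraries (columns), as log2(CPM + 0.1) on the color scale. The 3 libraries of a line resemble each other, and single genes such as Scn3a in HD-homo cells, Kcnab1 in HD-het cells and Kcnip1 in control cells stand out in 1 line.

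Between genes, levels were compared per kb of annotated exon, with the exons of all annotated transcripts of a gene merged. In control cells, Cacnb3, a cytoplasmic calcium channel beta subunit, had the highest level, 15.7 ± 0.168 CPM per kb (SD, n = 3), followed by Kcnip1, a calcium-binding partner of A-type potassium channels, at 10.8 ± 0.448, and Cacng7, a gamma subunit that also regulates AMPA receptors, at 7.71 ± 0.196. These 3 did not overlap among libraries. The next 3, Kcnf1, Cacna2d1 and Kcnq5, lay between 3.802 ± 0.0539 and 3.36 ± 0.220 CPM per kb. The libraries of Cacna2d1 overlapped those of both others, and those of Kcnf1 and Kcnq5 did not overlap. In HD-het cells, Cacng7 came first at 12.9 ± 2.14 CPM per kb, with libraries from 10.5 to 14.6. Cacnb3 at 9.24 ± 0.309 and Kcnab1, a cytoplasmic beta subunit of potassium channels, at 9.05 ± 0.0412 came next and overlapped each other. In HD-homo cells, Cacnb3 again led at 10.7 ± 0.238 CPM per kb. Scn3a, at 6.35 ± 1.56 with libraries from 4.56 to 7.37, and Cacng7, at 5.57 ± 0.294 with libraries from 5.24 to 5.79, followed and overlapped each other.

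Of the 138 channel genes, 58 had enough counts for edgeR's filter and entered the tests, beside 13508 genes in all. Of these, 26 were above the filter's limit of 0.298 CPM in all libraries of all 3 lines, and 18 in only 1 line. A gene that passes only through the line where it is high is bound to differ, so the counts and medians that follow describe the tested genes and are not support for a trend. Scn3a, Scn1a, Scn9a, Cacna1i, Kcnd3, Kcng1, Kcnh1, Kcnh5, Kcnip3 and Kcnj2 are among the genes that passed in this way. Their adjusted p-values below are descriptive for the same reason. In HD-homo against control cells, 20 of the 58 were higher, where 29.6% of all tested genes were, and 25 were lower, where 28.9% of all were. In HD-het against control cells, 23 were higher beside 33.8% of all genes, and 18 were lower beside 31.4%. In HD-homo against HD-het cells, 21 were higher beside 36.0% of all genes, and 25 were lower beside 35.6%. When the log2 fold change also had to reach 1, 35 of the 58 were called in HD-homo against control cells (19.1% of all tested genes), 30 in HD-het against control cells (18.4%) and 39 in HD-homo against HD-het cells (24.3%). The median absolute log2 fold change of the tested channel genes was 1.95, 1.296 and 1.88 in these comparisons, beside 0.32, 0.40 and 0.46 over all tested genes. The channel medians include the 18 genes that passed in only 1 line. The share of such genes among all tested genes was not determined, so the medians do not measure how far channel genes differ beyond other genes. Among the 24 channel genes with at least 10 counts in every library, HD-homo cells had 6 higher and 12 lower than control cells, beside 28.9% and 28.6% of the 11739 genes that met the same filter.

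Among the sodium channel pore subunits, Scn3a, a sodium channel of embryonic brain, gave 92.9% ± 0.364 (SD, n = 3) of the summed level per kb in HD-homo cells, while it was at the floor in the other lines.

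Scn3a stood at 56.8, 88.9 and 91.8 CPM in the 3 HD-homo libraries, against 0, 1 and 0 counts in the control libraries and 3, 1 and 2 counts in the HD-het libraries. It was thus at the floor in both other lines, and HD-homo replicate 1 was the lowest of its line. HD-homo cells had 7642-fold (exact 95% counting interval 1371 to 301879) the control level (edgeR adjusted p = 4.73e-10) and 1358-fold (exact 95% counting interval 624 to 3701) the HD-het level (edgeR adjusted p = 3.79e-10). Scn3a passed the filter through HD-homo cells alone, so these p-values describe a difference that was bound to appear.

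Scn2a, the sodium channel of axon initial segments in young neurons, was listed in 2 rows with separate counts. Summed over both, it stood at 0.127 ± 0.0340 CPM in control cells, 4.56 ± 0.559 CPM in HD-het cells and 3.39 ± 1.05 CPM in HD-homo cells. The row Scn2a alone had 0.0933, 0.0595 and 0.0676 CPM in control libraries, 2.199, 2.87 and 2.58 CPM in HD-het libraries and 1.29, 2.18 and 2.24 CPM in HD-homo libraries. Scn2a was higher in both HD lines than in control cells, 34.6-fold (exact 95% counting interval 16.5 to 86.9) in HD-het cells (edgeR adjusted p = 5.12e-07) and 26.3-fold (exact 95% counting interval 12.5 to 66.1) in HD-homo cells (edgeR adjusted p = 1.02e-06). The HD lines overlapped, and their difference did not pass the test (log2 fold change -0.41 ± 0.21, edgeR adjusted p = 0.0998). With the replicate number as a block, the difference passed (edgeR adjusted p = 0.0410). Scn1a, the sodium channel of fast-spiking interneurons, was expressed in HD-homo cells alone, at 1.13, 1.94 and 1.82 CPM against 1, 1 and 0 counts in control libraries and 2, 2 and 3 counts in HD-het libraries. That is 79.2-fold (exact 95% counting interval 21.6 to 659) the control level (edgeR adjusted p = 8.77e-07). Scn9a, a sodium channel of sensory neurons, reached 0.491, 0.758 and 0.775 CPM in HD-homo cells and was at the floor in the other lines (HD-homo against control edgeR adjusted p = 6.12e-05). Scn7a and Scn11a were at the floor in all 3 lines, and Scn8a, a major sodium channel of mature neurons, had 2 to 14 counts per library in all lines.

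Scn3a, Scn2a, Scn1a, Scn9a and Scn7a lie in 1 stretch of chromosome 2 (GENCODE M21 on GRCm38), from the start of Scn3a at 65457118 to the end of Scn7a at 66784914. HD-homo cells had counts above the floor for 4 of these 5 sodium channel genes, and HD-het cells only for Scn2a. Control cells had none by single rows, but with both Scn2a rows summed their libraries held 5, 3 and 4 counts, just above the floor. Between Scn2a and Scn1a lie the 3 other protein-coding genes annotated in this stretch, of which Csrnp3 stayed between 0.0663 and 0.108 CPM (means of the lines), Galnt3 had means of 0.0203 CPM in control cells, 0.195 CPM in HD-het cells and 1.14 CPM in HD-homo cells, and Ttc21b had 19.97 CPM in control cells, 20.7 CPM in HD-het cells and 35.4 CPM in HD-homo cells. These neighbors were looked up after the channel values had been seen. Of the 50-base words in the annotated transcripts, read on both strands, 6.49% of those of Scn3a, 5.76% of those of Scn2a and 4.03% of those of Scn1a also occur in other genes.

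For calcium channel pores, the leading gene per kb of exon was the P/Q-type Cacna1a in control cells, closely followed by the L-type Cacna1c. It was Cacna1c in HD-het cells and the T-type Cacna1g in HD-homo cells. Per kb, Cacna1a gave 48.6% ± 1.93 (SD, n = 3) of the pore level in control cells and Cacna1c 44.4% ± 1.39. Cacna1c gave 68.8% ± 0.839 in HD-het cells. In HD-homo cells, Cacna1g gave 42.0% ± 4.26 and Cacna1c 30.5% ± 2.52, with libraries that did not overlap. The lead of Cacna1a in control and of Cacna1g in HD-homo cells rests on the division by length. The merged exons hold 21191 bases for Cacna1c, 11418 for Cacna1a and 10137 for Cacna1g. By CPM without that division, Cacna1c was the highest calcium channel pore gene in every line.

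**Figure D3:**
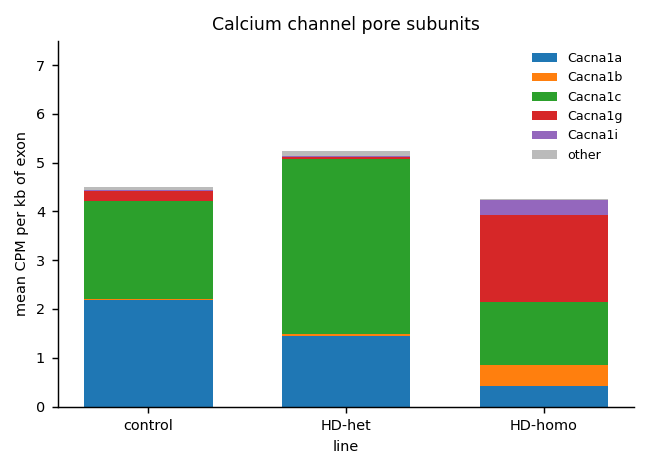
Mean CPM per kb of exon (y axis, n = 3 libraries) of the pore-forming calcium channel subunits in the 3 lines (x axis), stacked by gene, with genes of a minor share in every line drawn as other. Cacna1a and Cacna1c make up most of the bar in control cells, Cacna1c in HD-het cells, and Cacna1g is the largest part in HD-homo cells.

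Cacna1g, whose low-voltage-activated channel supports burst firing, stood at 2.49, 2.26 and 1.66 CPM in control cells, 0.338, 0.610 and 0.329 CPM in HD-het cells and 15.8, 18.2 and 19.9 CPM in HD-homo cells. It was lower in HD-het cells (log2 fold change -2.33 ± 0.26, edgeR adjusted p = 1.29e-05) and higher in HD-homo cells (log2 fold change 3.07 ± 0.17, edgeR adjusted p = 5.34e-08) than in control cells. Cacna1i, another T-type gene, was uneven among the HD-homo libraries, at 2.698, 0.616 and 5.67 CPM, and so did not count as expressed, although all 3 were above the control libraries at 0.249, 0.208 and 0.237 CPM (log2 fold change 3.65 ± 0.73, edgeR adjusted p = 0.00127). The third T-type gene, Cacna1h, was detected in all lines at no more than 0.387 CPM.

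Cacna1a, whose channel drives transmitter release at many central synapses, had 26.1, 25.5 and 23.3 CPM in control libraries, 19.01, 17.1 and 13.1 CPM in HD-het libraries and 4.08, 5.04 and 5.37 CPM in HD-homo libraries, with no overlap. The differences from control cells passed the test in HD-het cells (log2 fold change -0.60 ± 0.13, edgeR adjusted p = 0.00185) and in HD-homo cells (log2 fold change -2.37 ± 0.14, edgeR adjusted p = 1.01e-07). Cacna1b, the N-type pore, had 0.280, 0.208 and 0.270 CPM in control cells, 0.479, 0.457 and 0.419 CPM in HD-het cells and 3.28, 4.59 and 4.74 CPM in HD-homo cells. HD-homo cells had more of it than control cells (log2 fold change 4.04 ± 0.23, edgeR adjusted p = 6.33e-08). The smaller difference of HD-het cells (log2 fold change 0.84 ± 0.31, edgeR adjusted p = 0.0331) missed the threshold with an adjusted p of up to 0.109 when control replicate 2 was left out, and also missed it without any 1 of control replicates 1 and 3 and HD-het replicates 1 and 2, and with DESeq2. Cacna1e, the R-type pore, was detected in all lines at 3 to 7 counts per library.

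Cacna1c, the L-type pore of smooth and heart muscle and of neurons, stood at 46.6, 44.3 and 36.3 CPM in control cells, 85.3, 79.4 and 63.9 CPM in HD-het cells and 26.2, 22.7 and 33.9 CPM in HD-homo cells. Its lines did not overlap. It was higher in HD-het (log2 fold change 0.84 ± 0.15, edgeR adjusted p = 0.000463) and lower in HD-homo cells (log2 fold change -0.62 ± 0.15, edgeR adjusted p = 0.00476) than in control cells. Its order over the lines is that of the summed smooth muscle markers given above, and also that of the progenitor markers Nes and Pax6. A link to any of these was not tested. Cacna1d, the other L-type gene above the floor, was at most 0.846 CPM, and Cacna1f and Cacna1s were at the floor in all 3 lines.

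All 4 calcium channel beta subunits were expressed in at least 1 line. Cacnb3 had 63.6, 62.9 and 62.2 CPM in control cells, 37.4, 35.7 and 38.1 CPM in HD-het cells and 43.5, 43.2 and 41.8 CPM in HD-homo cells. It was lower in both HD lines (HD-het against control log2 fold change -0.76 ± 0.05, edgeR adjusted p = 5.22e-07, and HD-homo against control log2 fold change -0.55 ± 0.05, edgeR adjusted p = 5.48e-06). Cacnb4, a beta subunit of brain whose loss causes ataxia in mice, stood at 5.95, 5.67 and 5.03 CPM in HD-het cells, against 0.436, 0.387 and 0.372 CPM in control cells and 0.276, 0.308 and 0.298 CPM in HD-homo cells (HD-het against control log2 fold change 3.79 ± 0.17, edgeR adjusted p = 1.60e-08). Of its exon bases, 16.0% overlap the antisense gene A430018G15Rik. Of its transcript words, 15.0% also occur in other genes on either strand, a share that takes in such antisense overlap and is not a separate limit. Cacnb1, which serves skeletal muscle among other tissues, was lower in HD-het (log2 fold change -0.88 ± 0.16, edgeR adjusted p = 0.000420) and higher in HD-homo cells (log2 fold change 0.62 ± 0.14, edgeR adjusted p = 0.00339) than in control cells. Cacnb2, which serves heart muscle among other tissues, was lower in HD-het cells (log2 fold change -1.17 ± 0.15, edgeR adjusted p = 4.81e-05). In HD-homo cells its difference did not pass the test (log2 fold change -0.35 ± 0.15, edgeR adjusted p = 0.0579), though it did without HD-homo replicate 3, at -0.57 (edgeR adjusted p = 0.000674). The difference also passed with the replicate number as a block.

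Of the 4 alpha2delta genes, extracellular subunits that raise the surface level of the pore, only Cacna2d1, a binding target of gabapentin, was expressed. Its libraries held 43.7, 47.7 and 37.7 CPM in control cells, 52.02, 56.3 and 45.6 CPM in HD-het cells and 23.8, 27.02 and 17.7 CPM in HD-homo cells. All HD-homo libraries lay below the others (HD-homo against control log2 fold change -0.91 ± 0.14, edgeR adjusted p = 0.000242). Of the 8 gamma genes, only Cacng7 was expressed, at 19.3, 18.4 and 18.7 CPM in control cells, 35.6, 33.4 and 25.7 CPM in HD-het cells and 13.9, 12.8 and 14.1 CPM in HD-homo cells. It was higher in HD-het (log2 fold change 0.75 ± 0.11, edgeR adjusted p = 0.000116) and lower in HD-homo cells (log2 fold change -0.47 ± 0.11, edgeR adjusted p = 0.00409) than in control cells. The other gamma genes included 5 at the floor in all lines.

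Voltage-gated potassium channel pore and silent subunits had a summed level of 57.8 ± 0.999 CPM in control cells, 66.4 ± 0.637 CPM in HD-het cells and 13.7 ± 1.42 CPM in HD-homo cells (SD, n = 3). Of the 40 genes, 16 were tested. Against control cells, HD-homo cells had 2 higher and 8 lower (29.6% and 28.9% of all tested genes), and HD-het cells 7 higher and 3 lower (33.8% and 31.4%). Of the 16, 7 passed the filter's limit in all libraries of only 1 line. Per kb, Kcnf1 and Kcnq5 had the largest shares in control and HD-het cells and Kcnh6 and Kcns3 in HD-homo cells. Kcnf1, a silent subunit, stood at 18.4, 18.3 and 17.9 CPM in control cells and 27.5, 28.05 and 30.2 CPM in HD-het cells but at 0.245, 0.189 and 0.268 CPM in HD-homo cells (log2 fold change -6.28 ± 0.13, edgeR adjusted p = 1.47e-11). Kcnq5, a pore of the M-current that limits repeated firing, was 24.05, 27.4 and 25.9 CPM in control cells, 13.3, 13.8 and 14.6 CPM in HD-het cells and 1.84, 1.63 and 1.61 CPM in HD-homo cells. The lines did not overlap (HD-het against control log2 fold change -0.89 ± 0.08, edgeR adjusted p = 3.31e-06, and HD-homo against control log2 fold change -3.93 ± 0.10, edgeR adjusted p = 9.20e-11).

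HD-het cells alone expressed Kcnd3, Kcnh1 and Kcnh5, all of which were at the floor in the other lines. Kcnd3, a pore of the A-type current, had 3.497, 4.45 and 3.05 CPM in HD-het libraries, 1, 1 and 0 counts in control libraries and 0 counts in all HD-homo libraries. It was 174-fold (exact 95% counting interval 47.96 to 1446) the control level (edgeR adjusted p = 6.82e-07). Set against HD-het cells, HD-homo cells were at least 43.6-fold lower. Kcnh1, an ether-a-go-go channel of brain that is also found in dividing tumor cells, had 3.16, 2.74 and 3.35 CPM in HD-het libraries, 2, 0 and 1 counts in control libraries and 1, 1 and 2 counts in HD-homo libraries. HD-het cells had 98.2-fold (exact 95% counting interval 33.3 to 479) the control level of it (edgeR adjusted p = 1.19e-07). Kcnh5, its closest relative, had 2.397, 2.71 and 1.83 CPM in HD-het libraries, 2, 2 and 1 counts in control libraries and 0 counts in all HD-homo libraries. HD-het cells had 44.1-fold (exact 95% counting interval 18.6 to 137) the control level of it (edgeR adjusted p = 1.44e-06). The 3 genes were grouped here by this shared pattern, so that the likeness is not a result. They passed the filter through HD-het cells alone, and they lie on chromosomes 3, 1 and 12.

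Kcnh2, an ether-a-go-go-related channel that repolarizes the heart, was also highest in HD-het cells, at 3.07, 2.44 and 2.25 CPM against 0.933, 0.862 and 0.879 CPM in control cells and 0.215, 0.379 and 0.268 CPM in HD-homo cells. Its difference from control cells passed the test in HD-het (log2 fold change 1.53 ± 0.20, edgeR adjusted p = 5.03e-05) and HD-homo cells (log2 fold change -1.59 ± 0.27, edgeR adjusted p = 0.000366). Its relative Kcnh6 did not separate the lines, with libraries from 2.62 to 4.21 CPM, and neither comparison with control cells passed (HD-het log2 fold change 0.20 ± 0.18, edgeR adjusted p = 0.356, and HD-homo log2 fold change 0.12 ± 0.18, edgeR adjusted p = 0.600). Kcng1, a silent subunit, stood at 2.8, 2.62 and 2.57 CPM in control cells and fell short of 1 CPM in the HD lines (HD-het log2 fold change -3.96 ± 0.44, edgeR adjusted p = 1.35e-05, and HD-homo log2 fold change -2.74 ± 0.38, edgeR adjusted p = 8.32e-05). Kcnd1, another A-type pore, was higher in both HD lines, at 1.27, 1.74 and 1.41 CPM in HD-het cells and 2.39, 1.63 and 1.61 CPM in HD-homo cells against 0.591, 0.476 and 0.440 CPM in control cells. Both differences passed (HD-het log2 fold change 1.54 ± 0.25, edgeR adjusted p = 0.000259, and HD-homo log2 fold change 1.89 ± 0.25, edgeR adjusted p = 5.47e-05).

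Among the auxiliary subunits of these channels, a different gene led in each line. Kcnip1 stood at 67.8, 63.96 and 69.3 CPM in control libraries, 11.2, 10.5 and 4.55 CPM in HD-het libraries and 1, 1 and 1 counts in HD-homo libraries. The lines did not overlap, and HD-het replicate 3 was the lowest of its line. HD-het cells were 7.65-fold lower than control cells (edgeR adjusted p = 1.11e-06) and HD-homo cells 2418-fold (exact 95% counting interval 827 to 11730) lower (edgeR adjusted p = 6.55e-09). Its known pore partners are the Kcnd genes, of which control cells held Kcnd1 at 0.502 ± 0.0791 CPM (SD, n = 3) and Kcnd2 and Kcnd3 at the floor. Kcnip3, a relative of Kcnip1 that is also known as a calcium-dependent repressor of transcription, had the reverse order, with 0.0622, 0.0297 and 0.0338 CPM in control cells, 0.197, 0.183 and 0.419 CPM in HD-het cells and 2.18, 2.06 and 2.86 CPM in HD-homo cells. HD-homo cells had 55.9-fold (exact 95% counting interval 21.6 to 207) the control level (edgeR adjusted p = 3.88e-07).

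Kcnab1 was 77.6, 77.6 and 78.2 CPM in the HD-het libraries, 1.34, 1.55 and 1.25 CPM in control libraries and 1.13, 0.521 and 1.49 CPM in HD-homo libraries. It was thus far higher in HD-het than in control cells (log2 fold change 5.81 ± 0.20, edgeR adjusted p = 2.32e-09), and the HD-homo and control libraries overlapped (log2 fold change -0.44 ± 0.28, edgeR adjusted p = 0.193), a difference that, among the alternatives run, passed only without HD-homo replicate 3 (edgeR adjusted p = 0.0197). The 8 Kcna genes, which encode the pores Kcnab1 is known to bind, were at most 0.828 CPM in any library, the highest being Kcna4 in HD-homo cells. Its relative Kcnab2 went from 1.87, 2.11 and 1.72 CPM in control cells to 3.497, 3.72 and 4.31 CPM in HD-het and 7.36, 10.3 and 9.097 CPM in HD-homo cells. It was higher in both HD lines (HD-het log2 fold change 1.01 ± 0.17, edgeR adjusted p = 0.000274, and HD-homo log2 fold change 2.23 ± 0.16, edgeR adjusted p = 4.07e-07). Kcnab3 was lower in both, at 5.41 ± 0.250 CPM in control cells, 0.977 ± 0.321 CPM in HD-het cells (log2 fold change -2.47 ± 0.21, edgeR adjusted p = 2.01e-06) and 3.13 ± 0.557 CPM in HD-homo cells (log2 fold change -0.78 ± 0.18, edgeR adjusted p = 0.00365).

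Inward rectifiers, which let potassium in more easily than out and hold the resting potential, were low in all lines, with summed levels of 4.74 ± 0.290 CPM in control cells, 3.34 ± 0.511 CPM in HD-het cells and 7.85 ± 0.395 CPM in HD-homo cells (SD, n = 3). The line-specific member was Kcnj2, a strong rectifier of muscle and of striatal neurons, at 3.19, 3.34 and 3.37 CPM in HD-homo libraries, 2, 0 and 2 counts in control libraries and 6, 3 and 4 counts in HD-het libraries. HD-homo cells had 78.7-fold (exact 95% counting interval 30.5 to 291) the control level (edgeR adjusted p = 7.39e-08). Kcnj4, another strong rectifier, was lower in HD-homo cells at 0.766, 0.687 and 1.13 CPM than in control cells at 1.898, 1.61 and 1.66 CPM (log2 fold change -1.01 ± 0.25, edgeR adjusted p = 0.00471). Kcnj14 was lower in HD-het cells, at 1.16, 1.01 and 1.05 CPM, than in control cells, at 2.33, 2.38 and 2.87 CPM (log2 fold change -1.23 ± 0.20, edgeR adjusted p = 0.000211), but 30.8% of its transcript words occur in other genes, so its counts are uncertain.

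Among the leak channels with a pair of pore domains, which set background potassium conductance, Kcnk5 and Kcnk3 had opposite orders over the lines. Kcnk5, an alkaline-activated channel of kidney and lymphocytes, had 0 counts in all control libraries, 1.47, 1.402 and 1.17 CPM in HD-het libraries and 7.82, 8.05 and 9.22 CPM in HD-homo libraries. Against a control floor of 3 counts per library, the HD-het level was higher by at least 14.2-fold (edgeR adjusted p = 9.74e-07) and the HD-homo level by at least 88.3-fold (edgeR adjusted p = 1.25e-08). Kcnk3, an acid-inhibited channel, ran the other way, with 7.15, 6.66 and 3.75 CPM in control libraries, 2.002, 2.38 and 1.23 CPM in HD-het libraries and 0.0613, 0.118 and 0.268 CPM in HD-homo libraries. Both HD lines were lower (HD-het log2 fold change -1.65 ± 0.30, edgeR adjusted p = 0.000521, and HD-homo log2 fold change -5.28 ± 0.43, edgeR adjusted p = 1.20e-06). Per kb, Kcnk3 gave 37.9% ± 5.76 of the leak channel level in control cells and Kcnk5 69.4% ± 2.94 in HD-homo cells (SD, n = 3). Kcnk10, a stretch-sensitive channel, was lower in both HD lines, with 12.01, 11.6 and 9.77 CPM in control libraries, 3.83, 3.14 and 2.58 CPM in HD-het libraries and 3.37, 2.27 and 2.65 CPM in HD-homo libraries. Both differences passed (HD-het log2 fold change -1.80 ± 0.17, edgeR adjusted p = 4.47e-06, and HD-homo log2 fold change -2.02 ± 0.17, edgeR adjusted p = 1.94e-06). Kcnk12, a silent member of this family, was 0.591, 0.476 and 0.338 CPM in control libraries and 1.07, 1.49 and 1.05 CPM in HD-het libraries (log2 fold change 1.35 ± 0.32, edgeR adjusted p = 0.00337). The HD-homo libraries held 0, 0 and 2 counts, which is 25.6-fold (exact 95% counting interval 6.68 to 218) below control cells (edgeR adjusted p = 0.000180). The related Kcnk2 had means of 1.98 CPM in control, 2.08 CPM in HD-het and 1.29 CPM in HD-homo cells (HD-het log2 fold change 0.07 ± 0.21, edgeR adjusted p = 0.779, and HD-homo log2 fold change -0.62 ± 0.22, edgeR adjusted p = 0.0281).

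Of the calcium- and sodium-activated channels, Kcnn4, the intermediate-conductance channel of blood cells and proliferating cells, had the highest level per kb in every line. Its libraries had 11.8, 11.8 and 12.8 CPM in control cells, 3.33, 3.11 and 3.05 CPM in HD-het cells and between 18.9 and 22.01 CPM in HD-homo cells, with no overlap. It was lower in HD-het (log2 fold change -1.94 ± 0.10, edgeR adjusted p = 3.81e-08) and higher in HD-homo cells (log2 fold change 0.77 ± 0.09, edgeR adjusted p = 1.66e-05) than in control cells. Kcnn1, a small-conductance channel of neurons, was 3.702, 4.49 and 4.53 CPM in control libraries, 0.987, 0.488 and 0.779 CPM in HD-het libraries and 3.56, 3.98 and 3.698 CPM in HD-homo libraries, so that only the HD-het libraries lay apart (log2 fold change -2.48 ± 0.21, edgeR adjusted p = 1.68e-06). Kcnt2, a sodium-activated channel, was near 0.104 CPM in control cells and stood at 1.72, 2.5 and 1.02 CPM in HD-het libraries and 1.26, 1.21 and 2.48 CPM in HD-homo libraries. Both lines were above all control libraries (HD-het log2 fold change 4.01 ± 0.57, edgeR adjusted p = 9.20e-05, and HD-homo log2 fold change 3.92 ± 0.58, edgeR adjusted p = 0.000139). Kcnmb4, the brain beta subunit of the large-conductance channel, was highest in control cells, at 1.898, 1.58 and 1.79 CPM (HD-het log2 fold change -1.25 ± 0.21, edgeR adjusted p = 0.000337, and HD-homo log2 fold change -1.61 ± 0.22, edgeR adjusted p = 7.67e-05). The pore it joins, Kcnma1, had 3 to 9 counts per library. Antisense genes overlap 31.5% of the exon bases of Kcnmb4. Both antisense RNAs listed for it had 0 counts, as did Kcnd3os.

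**Figure D4:**
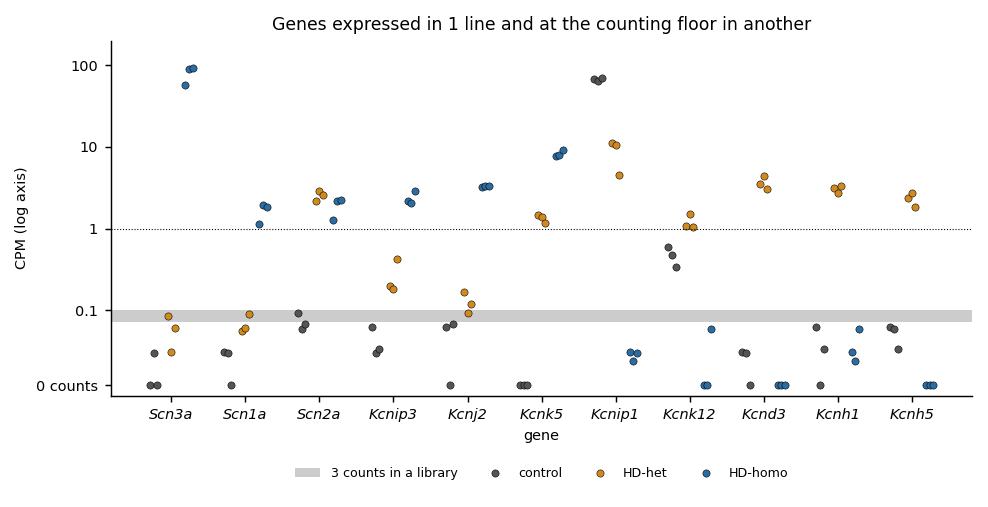
CPM in each library (points, log axis) of 11 genes that were expressed in 1 line and at the floor in another, by line, with Scn2a as its own row. The gray band is the CPM of 3 counts over the libraries, the dotted line is 1 CPM, and libraries with no count are drawn at the tick marked 0 counts. Scn3a in HD-homo cells and Kcnip1 in control cells sit far above the band that holds them in another line.

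In all, 12 rows were expressed in 1 line and at the floor in another, Kcnd3, Kcnh1, Kcnh5, Kcnip1, Kcnip3, Kcnj2, Kcnk12, Kcnk5, Scn1a, Scn2a, Scn2a1 and Scn3a. RefSeq promoter windows (GRCm38.p6, 250 bases before to 50 after the annotated start) were matched to 101 of the channel genes, as 137 windows. The 55 windows of 32 genes expressed in at least 1 line held a median of 15 CG pairs, and those of genes detected but not expressed 10. The windows of genes at the floor in all lines held 8.5, and all 32851 windows a median of 7. GGGCGG, read on both strands, stood in 52.73% of the windows of expressed genes, 40.0% of those detected only, 40.48% of those at the floor and 35.66% of all windows. TATAAA stood in 3.64%, 5.0%, 7.14% and 13.62%, in the same order. Genes with several windows count once per window. The windows of 5 genes with a single listed window are shown because their expression separates the lines and they include windows rich and poor in CG, with each CG in capitals. Kcnh1 (chr1:192190527-192190826, plus strand) and Kcnh5 (chr12:75177283-75177582, minus strand) were expressed in HD-het cells alone, Kcnk5 (chr14:20181733-20182032, minus strand) in both HD lines, Scn1a (chr2:66440788-66441087, minus strand) in HD-homo cells alone, and Kcnf1 (chr12:17176839-17177138, minus strand) in control and HD-het cells.
Kcnh1: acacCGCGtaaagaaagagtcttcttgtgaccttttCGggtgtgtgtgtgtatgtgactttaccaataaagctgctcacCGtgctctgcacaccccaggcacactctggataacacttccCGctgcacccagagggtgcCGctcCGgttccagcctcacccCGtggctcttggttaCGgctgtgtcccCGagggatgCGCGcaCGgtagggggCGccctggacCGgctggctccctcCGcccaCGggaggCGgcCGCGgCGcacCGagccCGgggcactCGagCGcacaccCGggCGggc
Kcnh5: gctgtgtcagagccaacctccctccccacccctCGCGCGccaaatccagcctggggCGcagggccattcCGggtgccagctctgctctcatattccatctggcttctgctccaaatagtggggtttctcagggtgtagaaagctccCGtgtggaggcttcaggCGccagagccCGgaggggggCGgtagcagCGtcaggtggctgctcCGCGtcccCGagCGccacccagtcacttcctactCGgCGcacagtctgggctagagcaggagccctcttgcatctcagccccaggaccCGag
Kcnk5: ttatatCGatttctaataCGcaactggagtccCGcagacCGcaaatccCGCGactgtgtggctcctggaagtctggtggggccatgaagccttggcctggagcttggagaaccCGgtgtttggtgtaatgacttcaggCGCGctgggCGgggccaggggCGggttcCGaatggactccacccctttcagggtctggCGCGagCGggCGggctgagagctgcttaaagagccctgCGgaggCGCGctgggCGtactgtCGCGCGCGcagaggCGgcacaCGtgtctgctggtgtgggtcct
Scn1a: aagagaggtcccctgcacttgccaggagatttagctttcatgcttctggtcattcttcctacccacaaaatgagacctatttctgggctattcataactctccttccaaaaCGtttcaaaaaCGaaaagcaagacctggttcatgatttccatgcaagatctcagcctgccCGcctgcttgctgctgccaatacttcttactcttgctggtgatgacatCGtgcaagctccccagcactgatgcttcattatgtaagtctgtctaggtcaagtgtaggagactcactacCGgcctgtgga
Kcnf1: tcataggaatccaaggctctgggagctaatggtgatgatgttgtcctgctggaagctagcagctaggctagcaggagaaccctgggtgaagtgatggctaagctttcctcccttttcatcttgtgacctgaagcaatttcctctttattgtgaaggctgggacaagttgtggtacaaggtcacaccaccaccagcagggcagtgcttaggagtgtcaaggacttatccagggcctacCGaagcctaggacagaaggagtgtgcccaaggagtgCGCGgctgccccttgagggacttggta
The windows of Kcnh1, Kcnh5 and Kcnk5 held 27, 17 and 26 CG pairs, more than 84.5%, 68.6% and 83.1% of all windows, and each held GGGCGG. Those of Scn1a and Kcnf1 held 5 and 3, more than 38.04% and 23.3% of all windows, and neither held GGGCGG. None of the 5 windows held TATAAA. Because the 5 windows were picked to include CG-rich and CG-poor ones, no pattern can be read from them. The only window of Kcnd3, also expressed in HD-het cells alone, held 25 CG pairs but no GGGCGG. Its last bases were not found in a GENCODE transcript of the gene. The window ends at 105451939, before the GENCODE start of Kcnd3 at 105452330, so its place at the promoter is uncertain.

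Of the tested channel genes, 32 were called against control cells in both HD lines, 20 of them with the same sign and 12 with opposite signs. Both comparisons share the control libraries. Among the 12, HD-homo cells were the lower for Cacna1c, Cacng7, Kcnf1, Kcnh2, Kcnh5, Kcnk12 and Kcnn2 and the higher for Cacna1g, Cacnb1 and Kcnn4. In 5 of the 12, Cacna1g, Kcnh2, Kcnh5 and Kcnk12 among them, both differences were at least 1 on the log2 scale. For Kcnh5 the HD-homo and control lines were both at the floor, so no fold is given between them. Kcnn2, a small-conductance channel, had 0.467, 0.446 and 0.270 CPM in control cells, 0.818, 0.610 and 0.629 CPM in HD-het cells and 0 counts in all HD-homo libraries.

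**Figure D5:**
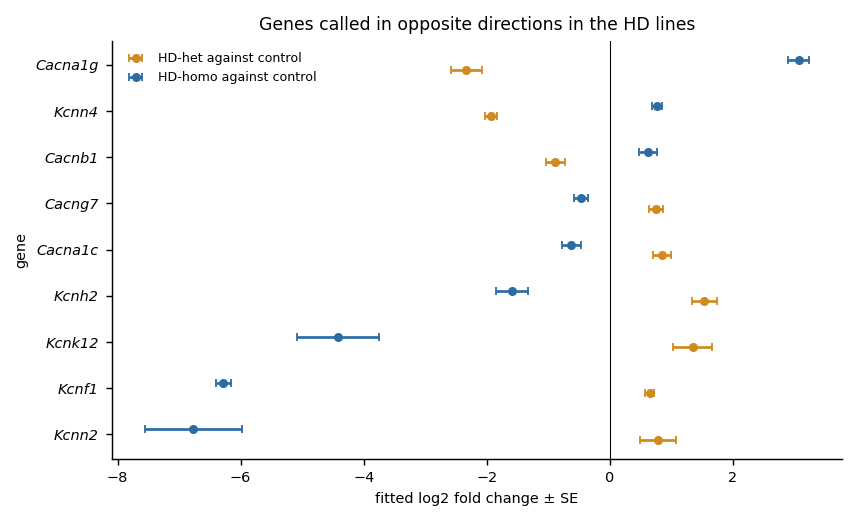
Fitted log2 fold change against control cells with its SE (x axis) for 9 channel genes called in opposite directions in HD-het and HD-homo cells (y axis). HD-homo values lie below 0 for 6 of them, down to Kcnf1 and Kcnn2, and above 0 for Cacna1g, Kcnn4 and Cacnb1, and the fitted value of Kcnn2 in HD-homo cells rests on libraries with 0 counts and is no measure of its size.

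A list of 44 other excitability genes, namely pacemaker, sodium leak and proton channels, ankyrins, intracellular growth factor homologs, channel adaptors, exchangers and pumps, was set beside the channels. Of these, 28 were tested. In HD-homo against control cells, 8 were higher and 10 lower, in HD-het against control cells 10 were higher and 8 lower, and in HD-homo against HD-het cells 7 were higher and 12 lower. Over all tested genes the shares were 29.6% and 28.9%, 33.8% and 31.4%, and 36.0% and 35.6%. Slc8a1, the sodium-calcium exchanger of heart and smooth muscle, and Stac, an adaptor of L-type calcium channels, were called in opposite directions. Slc8a1 had 41, 52 and 32 counts in control libraries, 746, 647 and 764 in HD-het libraries and 0, 2 and 1 in HD-homo libraries. It was higher in HD-het cells (log2 fold change 4.02 ± 0.16, edgeR adjusted p = 6.41e-09) and 47.4-fold (exact 95% counting interval 15.8 to 233) lower in HD-homo cells (edgeR adjusted p = 4.89e-07) than in control cells. Stac had a log2 fold change of 0.70 ± 0.19 (edgeR adjusted p = 0.00653) in HD-het cells and was 36.9-fold (exact 95% counting interval 14.1 to 138) lower in HD-homo cells (edgeR adjusted p = 3.61e-07). The lowest value of the list in HD-homo against control cells was that of Fgf13, a cytoplasmic partner of sodium channels, with 0, 0 and 1 counts against 38, 40 and 39 (edgeR adjusted p = 8.30e-07). In HD-het against control cells the extremes were Hvcn1, a proton channel, with 68, 53 and 44 counts against 3, 1 and 1 (edgeR adjusted p = 6.86e-07), and Ank3, the ankyrin that gathers sodium channels at the axon initial segment (log2 fold change -1.81 ± 0.09, edgeR adjusted p = 2.54e-08).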

How the data were processed

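RNA-seq of 9 libraries, 3 for each of the control, HD-het and HD-homo lines, was analysed. The authors isolated RNA with a miRNeasy kit, selected poly(A) RNA and made strand-specific libraries with NEBNext Ultra II, and deposited a table of whole-number counts per gene symbol, not normalized. The submitters' processing notes name cutadapt, Bowtie 1.1.2, RSEM 1.3.0, DESeq2, GRCm38.p5 and mm10 without their role. The counting program and annotation are not given in the sources used here. All columns were mapped to samples. In the table, 26 rows carry a date where the symbol should be, and 2 symbols appear in a further row.

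From these counts, edgeR 4.0.16 (R 4.3.3) gave TMM-normalized CPM, filterByExpr with a minimum count of 10, and the quasi-likelihood test over all 9 libraries with 1 mean per line. P-values were adjusted by Benjamini-Hochberg over all tested genes, with a threshold of 0.05. Log2 fold changes used a prior count of 0.125. Where a line was at or under 3 counts in every library, the ratio of summed counts is given with an exact 95% counting interval, or a bound against 3 counts per library where all libraries were at 0. Intervals and floors cover counting error only. Totals of 29507665 to 41197931 counts set that floor at 0.0710 to 0.101 CPM. On simulated counts for HD-homo against control cells (13326 genes), 197 of 200 changed genes were called, 4.37% of calls were false, and a comparison without changes gave 0 calls. The changes were set only in genes with ample expected counts in every library, and all genes had the same spread. These rates therefore do not carry over to genes near the floor or to data in which many genes differ.

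Exon lengths and positions were taken from GENCODE M21 (GRCm38) and promoters from RefSeq (GRCm38.p6). The genes, lists and tests were chosen with earlier results of these data known. Named were pore-forming sodium and calcium channel genes expressed in a line or at the floor in all, the 10 largest increases and decreases per comparison, genes expressed in 1 line and at the floor in another, the 10 highest per kb in each line, expressed auxiliary subunits, and genes called in opposite directions with log2 fold changes of at least 1. Of the excitability list, only the extremes and the genes called in opposite directions were named. Kcnd2, Kcna4, Kcnma1, Kcnn2, Cacna1d, Cacna1e, Cacna1h, Cacna1i, Scn8a, Scn9a, the antisense RNAs and any other channel gene named outside this rule were chosen after their values were seen. Some genes that the rules take in are not reported here, although the counts include them. Alternatives were other normalizations and filters, DESeq2 1.42.0, a replicate block, other expression limits, fits of only the lines compared, and leaving out each library. Summing both Scn2a rows, and the same settings for the excitability list, were added after seeing the data.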

Additional observations from a re-analysis of the deposited data

Results flagged for a closer look

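In 3 channel genes the difference from control cells had opposite signs in HD-het and HD-homo cells, with at least 1 on the log2 scale in both, and the difference between the HD lines passed the edgeR test. Cacna1g, a T-type calcium channel pore, was lower in HD-het and higher in HD-homo cells than in control cells, and the HD lines differed by 5.40 ± 0.22 (edgeR adjusted p = 2.64e-09) on the log2 scale, as HD-homo minus HD-het. Kcnh2, a repolarizing potassium channel, was higher in HD-het and lower in HD-homo cells, with -3.13 ± 0.24 (edgeR adjusted p = 3.95e-07) between the HD lines. For Kcnk12, the fitted value was -5.77 (edgeR adjusted p = 3.23e-06), but HD-homo libraries held 0, 0 and 2 counts, so its size is better given as 65.03-fold (exact 95% counting interval 17.6 to 543) lower than in HD-het cells. The comparisons with control cells share the control libraries.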

How the results depend on the processing

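Of 1803 values for 40 named genes in 3 comparisons, 1779 kept their direction and their side of the threshold under the alternatives, 10 lost the call, 9 gained it and 5 reversed. The reversals were in differences that did not pass the test, for Kcnh1 in HD-homo against control cells (log2 values of -0.36 without control replicate 2 and -0.21 without HD-homo replicate 3, in a range of -0.36 to 1.06 over the libraries left out) and for Kcnt2 in HD-homo against HD-het cells (0.25 without HD-het replicate 2, 0.06 without HD-homo replicate 1 and 0.10 without HD-homo replicate 2, in a range of -0.50 to 0.25). Counts of called genes moved by over 1.5 times only where at least 10 counts were required in every library, which left 24 channel genes. Channel genes were then 6 higher and 12 lower for HD-homo against control cells, 6 higher for HD-het against control cells, and 10 higher and 10 lower for HD-homo against HD-het cells. Of the other excitability genes, 5 were then higher and 4 lower for HD-homo against control cells, 6 higher for HD-het against control cells and 5 lower for HD-homo against HD-het cells. Leaving out each library in turn gave 20 to 21 channel genes higher and 23 to 26 lower for HD-homo against control cells, 20 to 26 and 17 to 18 in HD-het against control cells, and 21 to 22 and 24 to 27 in HD-homo against HD-het cells. Genes expressed were then 27 to 27 in control cells, 33 to 33 in HD-het and 29 to 30 in HD-homo cells. For the excitability genes the ranges were 8 to 9 higher and 9 to 10 lower, 9 to 10 and 8 to 9, and 6 to 8 and 10 to 13, in the same order of comparisons. Same-numbered libraries did not all deviate together, with correlations across genes of 0.0089 to 0.033 in HD-homo and control cells and 0.049 to 0.145 in HD-het and control cells. In HD-homo and HD-het cells they were -0.0053, 0.133 and 0.115, while libraries of unlike number there ran from -0.150 to 0.0645. The labels name no shared batch, so the main fit did not pair the libraries, and whether the numbers pair them was not settled. With the replicate block, 46, 42 and 47 channel genes were called, against 45, 41 and 46 without it, and of the named genes Scn2a in HD-homo against HD-het cells (adjusted p = 0.0410, edgeR), Cacnb2 in HD-homo against control cells (0.0458) and Cacna2d1 in HD-het against control cells (0.00848) gained a call. At this depth, genes at the floor could be present at up to 0.0710 to 0.101 CPM.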
